A study of Mus musculus with 14 samples.

Results

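Whole mouse lung was measured on 14 expression arrays, and the comparison described here sets the 6 arrays whose titles carry PBEF+/- against the 8 that do not, with mechanical ventilation as the other factor. The 14 arrays are all the arrays of the series, and they were assigned by title alone. The control side holds 4 arrays titled Control (given PBS, not ventilated, animals of 18 to 22 weeks) and 4 titled VALI (ventilated for 4 hours, 18 to 22 weeks). The PBEF+/- side holds 3 arrays titled PBEF+/- (marked as having no ventilator injury, 18 to 22 weeks) and 3 titled VILI PBEF+/- (ventilated for 4 hours, 8 to 12 weeks). The sample labels give a tidal volume of 40 ml/kg for both ventilated groups, while the text of the series gives 30 ml/kg. That text speaks of recombinant human PBEF delivered into the trachea, and the titles alone do not say whether PBEF+/- marks that protein or a genotype. The ventilated PBEF+/- animals are the only younger group, so in the ventilated comparison the label and the age cannot be told apart. Nothing in the labels says that the arrays of a group are separate animals, and p-values then measure the spread between these samples, which may be technical.

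PBEF, pre-B-cell colony-enhancing factor, is the product of Nampt. Inside cells it makes nicotinamide mononucleotide, the rate-limiting step of NAD salvage, and outside cells it is known as an inflammatory factor in injured lung. Immediate early genes such as Fos, Egr1 and Nr4a1 are transcribed within minutes of stretch, growth factors or cytokines without new protein synthesis. Cytokine genes such as Il6, Ccl2 and Cxcl1, many of them driven by the transcription factor NF-kB, follow and recruit leukocytes.

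Sequences are shown for the promoters of 4 leading genes whose window held an element, since many immediate early promoters hold a cAMP response element or a serum response (CArG) element. They are the 250 bases before the annotated start, printed 5′ to 3′ on the gene's own strand, from RefSeq (GRCm38.p6). Capitals mark the core of the cAMP response element, TGACG or its reverse complement CGTCA, and CArG boxes. Ccn1 lies at chr3:145649986-145650235 (minus strand), Nr4a1 at chr15:101266596-101266845 (plus), Fosb at chr7:19310046-19310295 (minus) and Dusp5 at chr19:53528895-53529144 (plus).
Ccn1: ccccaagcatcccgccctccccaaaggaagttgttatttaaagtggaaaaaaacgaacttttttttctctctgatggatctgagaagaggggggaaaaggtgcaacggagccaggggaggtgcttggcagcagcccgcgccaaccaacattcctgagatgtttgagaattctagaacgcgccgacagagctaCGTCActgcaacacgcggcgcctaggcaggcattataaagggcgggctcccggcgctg
Nr4a1: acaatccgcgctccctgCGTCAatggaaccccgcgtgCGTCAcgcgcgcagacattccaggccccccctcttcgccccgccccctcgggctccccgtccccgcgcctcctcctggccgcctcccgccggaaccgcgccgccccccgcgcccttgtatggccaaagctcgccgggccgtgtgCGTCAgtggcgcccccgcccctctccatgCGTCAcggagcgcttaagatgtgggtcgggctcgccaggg
Fosb: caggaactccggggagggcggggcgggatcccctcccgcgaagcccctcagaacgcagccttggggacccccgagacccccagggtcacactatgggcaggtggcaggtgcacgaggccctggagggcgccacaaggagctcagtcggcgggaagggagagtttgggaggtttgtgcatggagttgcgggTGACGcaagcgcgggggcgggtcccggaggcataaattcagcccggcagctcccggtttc
Dusp5: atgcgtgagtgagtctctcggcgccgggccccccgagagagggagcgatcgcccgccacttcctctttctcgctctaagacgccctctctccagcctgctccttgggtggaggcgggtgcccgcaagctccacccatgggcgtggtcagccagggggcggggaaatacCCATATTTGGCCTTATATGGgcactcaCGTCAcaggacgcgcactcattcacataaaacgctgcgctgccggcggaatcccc

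The Nr4a1 window holds 4 copies of the core, those of Ccn1 and Fosb hold 1 each, and that of Dusp5 holds 1 together with 2 adjoining CArG boxes. Of 23 immediate early genes listed for this comparison, 18 had a promoter window, all but Egr1, Egr3, Fosl1, Ier2 and Myc. The core, on either strand, was in a window of 12 of the 18. Over all 27025 genes with a window, 19.8% held it. The full element, TGACGTCA, which contains the core, was in 2 of the 18 (Btg2 and Dusp1) and in 1.77% of all genes. A CArG box was in 2 of the 18 (Egr2 and Zfp36) and in 1.62% of all genes. Of the 10 leading higher genes, 9 had a window, and the core was in that of 6, while those of Rgs16, Taf1d and Rpl12 held none of these elements. These matches describe letters in the window and show no binding.

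Before the results, 2 arrays have to be named because Il6 in them lay far from the other arrays of their group. Whether these 2 are labelled wrongly was not tested. Il6 was at 2.78 in VALI replicate 4, while the other VALI arrays lay at 9.60 to 9.85. It was at 10.87 in PBEF+/- replicate 3, while the other PBEF+/- arrays lay at 2.10 and 2.56. Xist was low, and the Y-linked Eif2s3y high, a male pattern, in 1 of the 6 PBEF+/- arrays and in 3 of the 8 others. These were PBEF+/- replicate 2, Control replicates 1 and 4 and VALI replicate 4. VALI replicate 4 was the only ventilated array with that pattern, so without it the ventilated comparison holds none. Lung identity held throughout: the surfactant gene Sftpc lay between 15.38 and 15.70 and the club cell gene Scgb1a1 between 15.77 and 16.08 in all 14 arrays. Results are given with all 14 arrays and again without VALI replicate 4 and PBEF+/- replicate 3. Values are log2 expression, and differences are PBEF+/- arrays minus the others, on the log2 scale, with the standard error (SE) of the additive limma model.

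No gene passed an adjusted p of 0.05 for the PBEF+/- label over the 11360 genes tested with limma. The smallest adjusted p was 0.0562, for Ccn1. At an unadjusted p under 0.05, 1547 genes (13.6%) differed, 369 higher (3.25%) and 1178 lower (10.4%). Leaving out the 2 arrays gave 0 called genes, with 740 (6.51%) under that unadjusted threshold, 209 higher (1.84%) and 531 lower (4.67%). Within the unventilated and the ventilated state taken alone, 0 genes were called, and 938 (8.26%) and 1191 (10.5%) passed the unadjusted threshold. The median difference of all genes was -0.089, and 136 genes differed by 2-fold or more. The split of directions depended on scaling and on the filter on low values. Higher genes were 23.9% of those under the unadjusted threshold as deposited, 34.4% after quantile normalization and 59.8% after centring the tested genes of each array on their median. With no filter on low values, 1212 genes were higher (6.66% of 18194) and 1209 lower, so that 50.1% were higher, with a median difference of 0.002. After the centring, chosen after the data were seen, Ccn1 had an adjusted p of 0.0279. Single arrays moved these counts by over 1.5 times. The higher genes numbered 239, 232 and 579 without PBEF+/- replicate 3, VILI PBEF+/- replicate 1 and PBEF+/- replicate 2. The lower genes numbered 732, 747, 726, 746 and 1818 without VALI replicate 4, PBEF+/- replicate 3, VILI PBEF+/- replicate 1, VILI PBEF+/- replicate 2 and PBEF+/- replicate 1.

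The gene with the smallest p was Ccn1 (also Cyr61), a secreted matricellular protein induced by stretch and growth factors. Its level was 11.37, 10.90, 11.29 and 11.64 in Control, and 12.17, 12.14 and 13.20 in PBEF+/-. In ventilated lungs it was 11.93, 12.64, 12.10 and 12.44 in VALI, and 13.84, 13.81 and 13.38 in VILI PBEF+/-. The PBEF+/- arrays lay above their counterparts in both ventilation states with no overlap. The difference was 1.30 ± 0.18 over 14 arrays and 1.17 ± 0.17 (limma adjusted p = 0.0900) without the 2 arrays. The 3 other probe sets of Ccn1 gave 1.29, 1.33 and 1.29.

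Egr1 encodes a zinc-finger transcription factor of the immediate early response. Its level was 11.17, 10.31, 10.65 and 11.29 in Control against 12.08, 12.00 and 13.75 in PBEF+/-. With ventilation it was 12.50, 12.94, 12.56 and 12.62 in VALI against 13.98, 13.98 and 13.59 in VILI PBEF+/-. Here too each labelled group lay wholly above its counterpart, and the difference was 1.47 ± 0.26 (limma adjusted p = 0.290). It was 1.18 ± 0.16 without the 2 arrays, with the unventilated and ventilated parts at 1.19 and 1.18.

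Nr4a1, an orphan nuclear receptor, was the only tested gene whose 6 PBEF+/- arrays all lay above all 8 others (0.00880% of genes). That share is Nr4a1 itself and is no background. How many of 11360 genes would lie so under shuffled labels was not tested. Nr4a1 stood at 11.70, 11.72 and 11.85 in PBEF+/- and 12.51, 12.33 and 11.97 in VILI PBEF+/-. The others were 11.02, 9.28, 9.53 and 10.87 in Control and 10.78, 11.08, 9.80 and 11.53 in VALI. The gap between the lowest labelled and the highest other array was 0.17, and the array closest to it was VALI replicate 4. The difference was 1.53 ± 0.30 (limma adjusted p = 0.348), and 1.63 ± 0.32 without the 2 arrays.

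Fosb, a subunit of the AP-1 transcription factor, had the largest difference among the 10 leading genes, at 3.17 ± 0.64 (limma adjusted p = 0.348). In VILI PBEF+/- it was 10.97, 11.05 and 9.55 against 6.33, 6.49, 5.70 and 6.93 in VALI. In unventilated lungs the groups overlapped: PBEF+/- replicates 1 and 2 were at 5.69 and 4.90, replicate 3 at 9.18, and Control ran from 3.17 to 5.27. Without the 2 arrays the unventilated difference was 0.87 and the ventilated one 4.35.

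**Figure D1:**
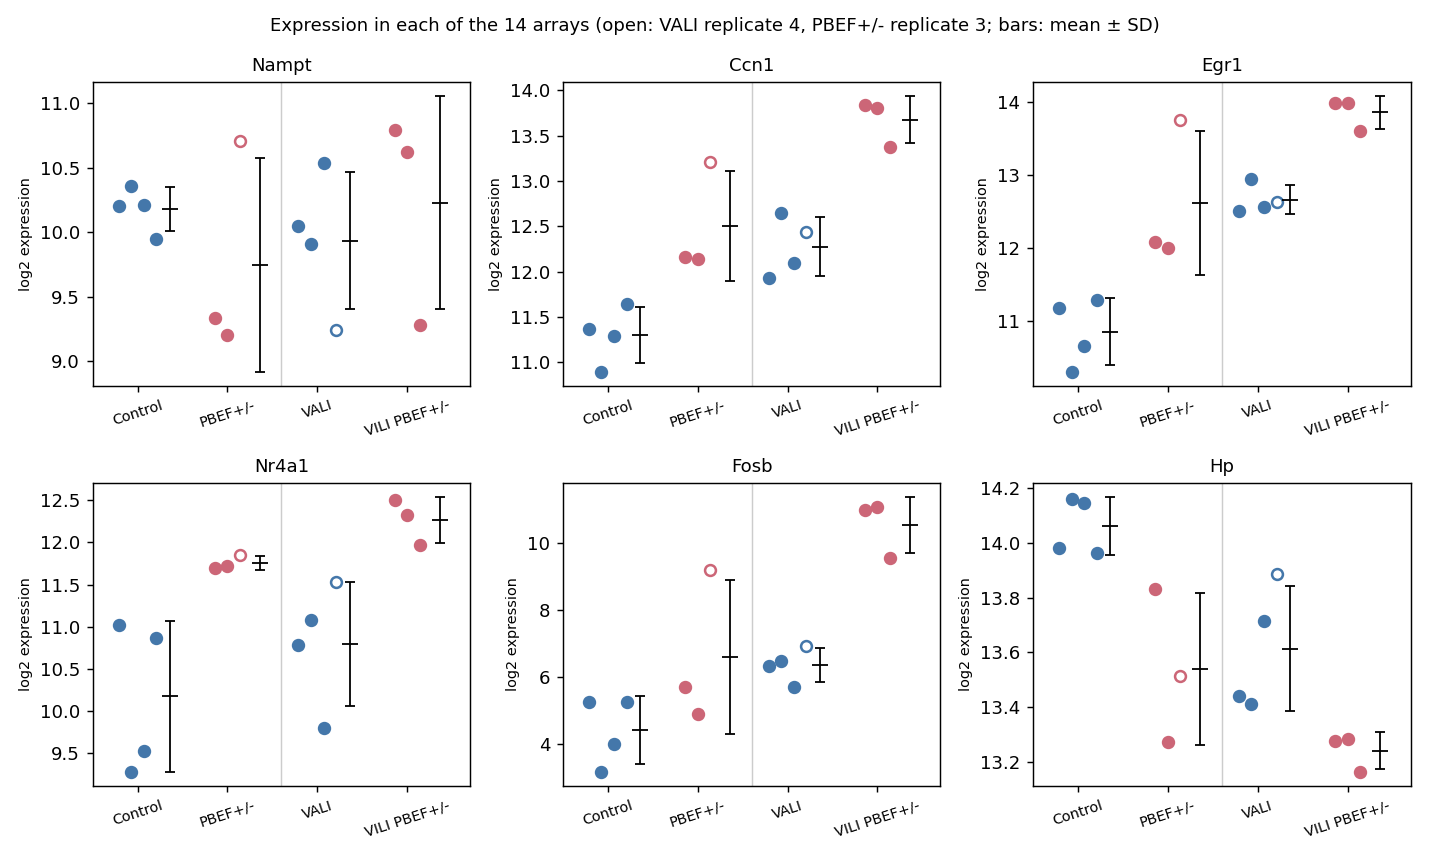
Log2 expression of Nampt and 5 leading genes in each of the 14 arrays by group; points are arrays, bars are the mean ± SD, open points are VALI replicate 4 and PBEF+/- replicate 3, and the grey line parts unventilated (left) from ventilated groups. For Ccn1, Egr1 and Nr4a1 the labelled groups sit above their counterparts in both states, Hp sits below, and the unventilated Fosb groups overlap, with the open point at 9.18 far above the other PBEF+/- arrays.

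Rgs16, which limits signalling by G protein-coupled receptors, was at 4.07, 4.75 and 5.33 in PBEF+/- against 3.03 to 4.07 in Control. It was at 7.73, 6.84 and 7.03 in VILI PBEF+/- against 4.10 to 5.29 in VALI. The unventilated groups touched at 4.07, and the ventilated groups were well apart. The difference of 1.76 ± 0.32 (limma adjusted p = 0.299) came with an unadjusted interaction p of 0.015, since the ventilated difference was 2.49 and the unventilated one 1.03. The other leading higher genes were Egr2 (1.84 ± 0.38), Atf3 (2.04 ± 0.45), the ERK phosphatase Dusp5 (0.85 ± 0.18), the RNA polymerase I cofactor Taf1d (0.48 ± 0.10) and the ribosomal protein gene Rpl12 (0.96 ± 0.22). The other Taf1d probe sets above the filter on low values gave 0.61, 0.10, 0.08, 0.50 and 0.24. All 20 leading genes, 10 in each direction, had the same sign in both ventilation states, and all 20 kept it without the 2 arrays. Of them, 6 higher and 6 lower ones were apart without overlap in both states. The 20 were picked by their p over both states in these same arrays, so these counts follow largely from that choice.

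Over all genes, 61 (0.537%) were apart the same way in both states, 16 higher (0.141%) and 45 lower (0.396%). In opposite ways 23 genes (0.202%) were apart. The 16 higher genes include the leading 6 (Ccn1, Egr1, Rgs16, Nr4a1, Taf1d and Rpl12), the chemokine Ccl3, the prothrombinase Fgl2 and the IL-17 receptor subunit Il17ra. They also include Snhg1, a host gene of small nucleolar RNAs, Gar1, a protein of H/ACA small nucleolar ribonucleoproteins, Wdr43 and Sdad1. Those of them that are not leading genes or list members were named after their values were seen. Snhg1 was at 10.75, 10.99 and 11.77 in PBEF+/- against 10.31 to 10.36 in Control. It was at 12.06, 11.94 and 12.15 in VILI PBEF+/- against 11.71, 11.71, 11.80 and 11.02 in VALI. Its difference was 0.66 ± 0.16 over 14 arrays and 0.41 without the 2 arrays. The sign was the same in both states for 61.7% of all genes. The 2 within-state contrasts share no arrays, but each holds 1 of the 2 arrays that Il6 set apart from their group. The median of all genes was below 0 in both (-0.090 unventilated, -0.077 ventilated), and such a common shift raises the share of equal signs. Across genes, which are not independent replicates, the correlation of both contrasts was r = 0.28. Both values are for all 14 arrays and are not given without the 2 arrays.

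**Figure D2:**
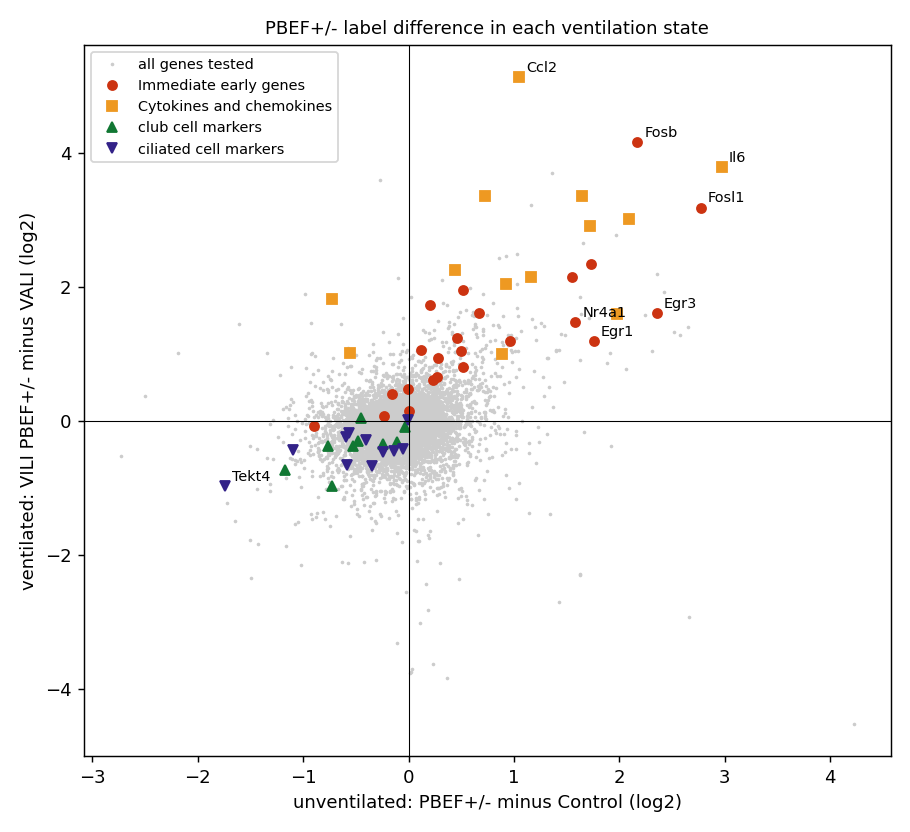
Log2 difference between PBEF+/- and Control (x axis) and between VILI PBEF+/- and VALI (y axis) for each tested gene (grey) and for the members of 4 lists, all 14 arrays. Immediate early and cytokine genes lie mostly in the upper right, with ventilated differences of up to 5.13 (Ccl2), while club and ciliated cell markers lie mostly in the lower left. The unventilated medians of immediate early and cytokine genes are 0.50 and 1.05 as shown. Without VALI replicate 4 and PBEF+/- replicate 3 they are 0.09 and 0.07.

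Of the 23 immediate early genes, all tested, 15 were higher and 0 lower at an unadjusted p under 0.05, against 3.25% higher and 10.4% lower over all genes. Their median difference was 0.85 against -0.089 for all genes. Without the 2 arrays 13 were higher, against 1.84% of all genes, and the median was 0.61. With age as a covariate, where only the unventilated arrays bear on the label, 7 were higher, against 1.93% of all genes. Arrays were apart more often in ventilated than in unventilated lungs, a difference that was not tested as such. The 3 VILI PBEF+/- arrays lay above all 4 VALI arrays for 17 of the 23 genes, against 4.67% of all genes, and above VALI replicates 1 to 3 for 18, against 5.99%. The 3 PBEF+/- arrays lay above all Control arrays for 2 of the 23, Egr1 and Nr4a1, against 1.38% of all genes. Without the 2 arrays the median was 0.09 in unventilated and 1.06 in ventilated lungs. The difference between both states was not called for any gene, with a smallest limma adjusted p of 0.508 over all genes and 634 genes (5.58%) under an unadjusted 0.05.

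Fos itself was at 14.42, 14.27 and 14.29 in VILI PBEF+/- against 12.96 to 13.20 in VALI. In unventilated lungs it was at 12.37, 12.09 and 14.15 in PBEF+/- against 11.48 to 12.28 in Control, so the groups overlapped there. Egr3 was at 8.44, 9.63 and 10.15 in PBEF+/- against 5.41 to 8.93 in Control, and at 10.68, 10.72 and 9.54 in VILI PBEF+/- against 8.34 to 9.10 in VALI. The Egr3 difference was 1.98 ± 0.49 and remained at 1.81 without the 2 arrays. Fosl1 shows the opposite dependence: its difference of 2.98 ± 1.16 was 1.11 without them, with PBEF+/- replicate 3 at 9.21 and the other PBEF+/- arrays at 2.04 and 3.33. Jun (0.12 ± 0.16), Dusp1 (0.08 ± 0.15), Klf4 (-0.08 ± 0.16) and Klf2 (-0.49 ± 0.35) did not pass the unadjusted threshold.

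Of 21 cytokine and chemokine genes, 13 were tested, and 10 were higher and 0 lower at an unadjusted p under 0.05, against 3.25% higher and 10.4% lower over all genes. With no filter on low values all 21 could be tested, and 14 were higher against 6.66% of all genes. The median difference of the 13 was 1.78, and 1.14 with 9 higher (1.84% of all genes) without the 2 arrays. With age as a covariate 1 of the 13 was higher, against 1.93% of all genes. Ccl2, the main monocyte chemoattractant, was at 10.94, 10.65 and 8.08 in VILI PBEF+/- against 5.16, 4.54, 5.67 and 3.67 in VALI. In unventilated lungs Ccl2 was at 3.23 and 3.73 in PBEF+/- replicates 1 and 2, beside a Control range of 3.48 to 3.72, and at 6.92 in replicate 3. The ventilated Ccl2 difference was 5.13 and the unventilated one 1.05, or -0.10 without the 2 arrays, with an unadjusted interaction p of 0.0045.

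Ccl7, another monocyte chemoattractant, was at 6.93, 7.55 and 5.12 in VILI PBEF+/- against 2.85 to 3.99 in VALI. Ccl7 passed the filter on low values through 4 PBEF+/- arrays and 0 of the 8 others, the only listed gene to do so. Its place among the 10 is therefore no support for a difference. Ccl2 was above the array median in 4 PBEF+/- arrays and 2 of the 8 others, where the filter needs 3. It too passed only with labelled arrays, so its place among the 10 is no support either. Cxcl1, a neutrophil chemoattractant, was at 12.09, 11.26 and 10.03 in VILI PBEF+/- against 7.18 to 9.55 in VALI, and its ventilated difference was 2.56 without the 2 arrays. Il6 in VILI PBEF+/- was at 12.75, 12.33 and 10.32, above all VALI arrays. The Il6 difference of 3.38 ± 1.37 over 14 arrays was 1.14 without the 2 arrays that Il6 itself singled out. For 9 of the 13 tested genes the VILI PBEF+/- arrays lay wholly above VALI, both with and without VALI replicate 4, against 4.67% and 5.99% of all genes. Ccl2 and Ccl7 are among these 9 and enter the medians of the 13, where they are no support either. In unventilated lungs the PBEF+/- arrays lay wholly above Control for 1 of the 13, against 1.38% of all genes. The median of the list without the 2 arrays was 0.07 in unventilated and 2.14 in ventilated lungs, where the label goes with age.

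Among NF-kB subunits and targets, 12 of 16 tested genes were higher and 0 lower at an unadjusted p under 0.05, against 3.25% and 10.4% of all genes, with a median of 0.53. Leaving out the 2 arrays left 6 higher, against 1.84% of all genes, and a median of 0.39. By state, the median without them was -0.02 in unventilated and 0.72 in ventilated lungs, where the label goes with age. With age as a covariate 1 of the 16 was higher, against 1.93% of all genes. Leaving out PBEF+/- replicate 3 alone gave 7, beside 239 higher of all 11360 genes. Leaving out VILI PBEF+/- replicate 2 alone gave 6, beside 254. Tnfaip3, which ends NF-kB signalling, was at 9.18, 9.42 and 10.15 in PBEF+/- against 8.56 to 9.03 in Control. It was at 11.68, 11.38 and 9.87 in VILI PBEF+/- against 9.16 to 9.98 in VALI, where 1 array overlapped. The Tnfaip3 difference was 1.02 ± 0.26, beside 1.13 ± 0.29 for Nfkbiz, an atypical IkB protein needed for secondary response genes, and 1.01 ± 0.28 for Tnfaip2. Of 13 tested genes of the TLR4 receptor complex, a proposed receptor of extracellular PBEF, 0 passed in either direction, with a median of 0.12.

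Of 12 tested stretch and growth factor response genes, 8 were higher and 0 lower at an unadjusted p under 0.05, against 3.25% and 10.4% of all genes, with a median of 0.55. Without the 2 arrays the count was 4, against 1.84% of all genes, and the median 0.29. The count was 3 with age as a covariate, against 1.93% of all genes. It was 5 without PBEF+/- replicate 3 or without VILI PBEF+/- replicate 2, beside 239 and 254 higher of all 11360 genes. Besides Ccn1 the 8 include Hbegf, an EGF receptor ligand (0.95 ± 0.30), and Itgb8, the integrin subunit that activates latent TGF-beta (0.58 ± 0.16). Itgb8 was at 6.31, 6.55 and 6.77 in PBEF+/- against 5.61 to 6.08 in Control. In ventilated lungs the Itgb8 groups overlapped, with VALI replicate 3 at 7.67 and the other VALI arrays at 6.81 to 6.91. Thbs1 had a difference of 1.28 ± 0.49 over 14 arrays and 0.61 without the 2 arrays. The angiogenic factor Vegfa (-0.02 ± 0.11) and Pdgfb (-0.00 ± 0.18) lay near 0. Of 17 IL-6 and STAT3 targets, 5 were higher and 1 lower, against 3.25% and 10.4% of all genes, with a median of 0.39. Of the 17, 1 was higher and 1 lower without the 2 arrays, against 1.84% and 4.67% of all genes, and the median was -0.03. Socs3, the feedback inhibitor of that pathway, was at 14.62, 14.73 and 14.10 in VILI PBEF+/- above VALI replicates 1 to 3, which lay at 13.35 to 13.62. In unventilated lungs Socs3 was at 10.47 and 10.89 in PBEF+/- replicates 1 and 2, inside or near the Control range of 10.53 to 11.16, and at 13.61 in replicate 3.

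**Figure D3:**
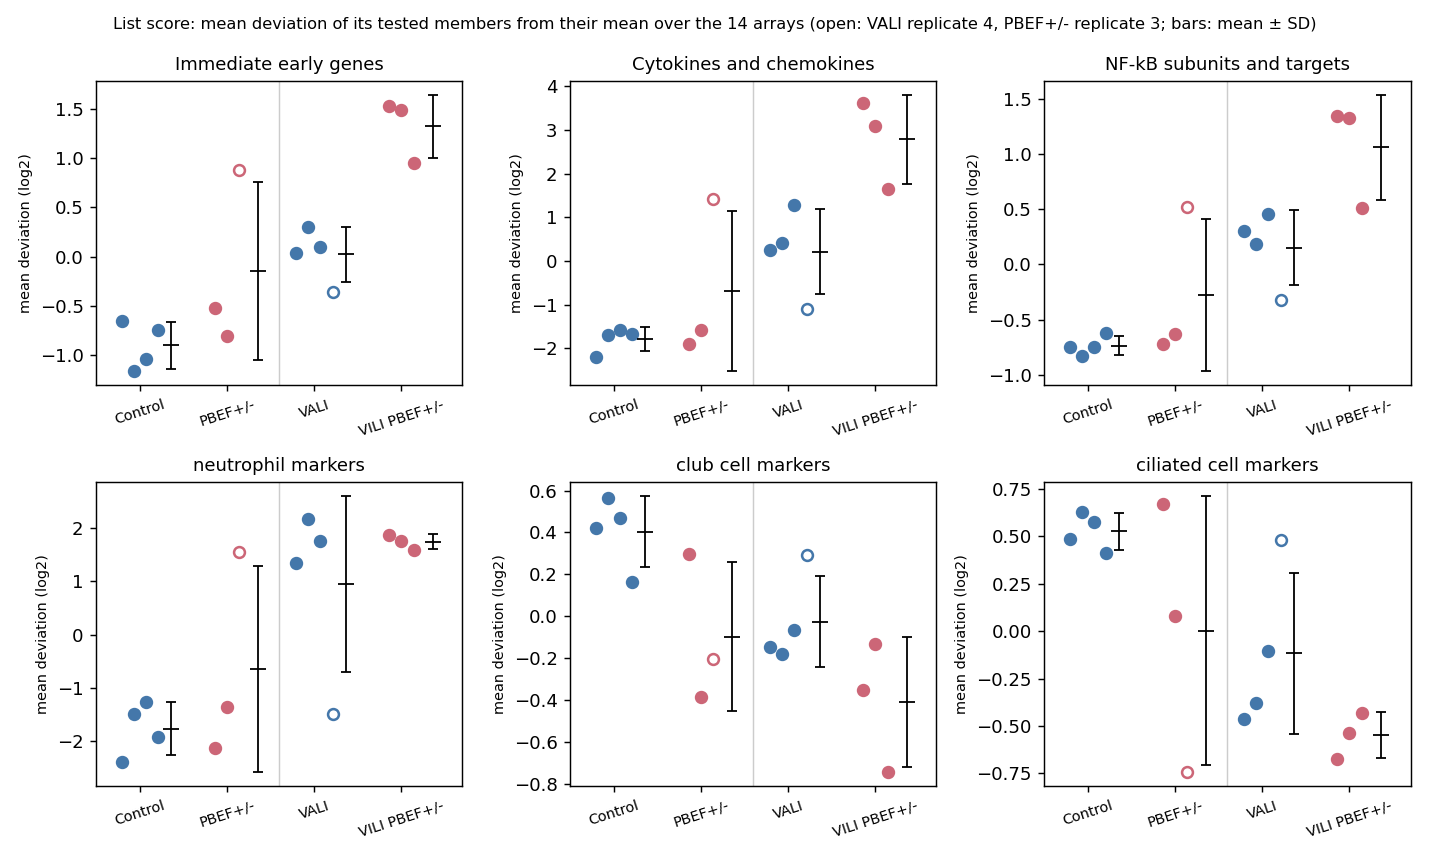
Mean deviation of each list's tested members from their own mean over the 14 arrays (log2), by array and group; bars are the mean ± SD, open points are VALI replicate 4 and PBEF+/- replicate 3. In the immediate early panel the VILI PBEF+/- arrays lie between 0.95 and 1.53 and the VALI arrays between -0.36 and 0.30, while 2 of the 3 PBEF+/- arrays lie at -0.52 and -0.81, near or inside the Control range of -1.17 to -0.65.

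Heat shock genes, which encode protein chaperones, went in opposite directions in the 2 states, so the additive model returned little: 0 of 14 passed and the median was 0.13. Their median was -0.36 in unventilated lungs and 0.70 in ventilated lungs, or -0.61 and 0.61 without the 2 arrays. Of the 14, 10 had an unadjusted interaction p under 0.05, against 5.58% of all genes, and none was called. Hsph1, a co-chaperone of Hsp70, was at 12.86, 12.51, 12.47 and 11.20 in Control against 10.91, 9.77 and 11.29 in PBEF+/-. With ventilation Hsph1 was at 10.97, 11.61, 12.52 and 10.51 in VALI against 12.25, 12.15 and 14.16 in VILI PBEF+/-. Its levels overlapped in both states. The column that would test this difference between states is the same as one for age.

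Among the lower genes, Hp (haptoglobin), a haemoglobin-binding acute-phase protein made in lung by airway epithelium, was at 13.98, 14.16, 14.15 and 13.96 in Control against 13.83, 13.27 and 13.51 in PBEF+/-. In ventilated lungs Hp was at 13.44, 13.41, 13.72 and 13.89 in VALI against 13.28, 13.28 and 13.16 in VILI PBEF+/-. Both labelled groups lay below their counterparts, and the difference was -0.45 ± 0.09 (limma adjusted p = 0.348), or -0.39 without the 2 arrays. Shh, the hedgehog ligand of airway epithelium, was at 9.997, 9.93 and 9.42 in PBEF+/- against 10.12 to 10.59 in Control. Shh was at 8.81, 8.54 and 9.14 in VILI PBEF+/- against 9.31 to 9.85 in VALI, a difference of -0.65 ± 0.13 overall and -0.53 without the 2 arrays.

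Of the genes whose 6 labelled arrays lay below all 8 others, 3 were found (0.0264%): Apoe, Ncaph2 and Alkbh4. The number that shuffled labels would give was not tested here either. Apoe, the lipid carrier protein, was at 11.55, 11.56 and 11.65 in PBEF+/- and 11.58, 11.49 and 11.68 in VILI PBEF+/-. The 8 other arrays of Apoe ran from 11.69 to 11.92, and the difference was -0.23 ± 0.06. For Ncaph2, a condensin II subunit, the probe set used gave -0.29 ± 0.08, but its other 3 probe sets gave -0.06, 0.10 and 0.04. For Alkbh4 the probe set used gave -0.21, and its others gave -0.05 and -0.26. Pon1, an antioxidant enzyme carried on HDL, differed by -0.57 ± 0.14, the adaptor Grb7 by -0.68 ± 0.16, Reep4 by -0.66 ± 0.16 and Faah, which degrades anandamide, by -0.45 ± 0.11. The other Faah probe set gave -0.09. The water channel Aqp4 was at 6.43, 5.27 and 4.02 in PBEF+/- against 6.49 to 6.95 in Control. Aqp4 was at 3.33, 4.18 and 3.67 in VILI PBEF+/-, below VALI replicates 1 to 3 (4.73 to 5.12) and VALI replicate 4 (7.39). Its difference was -1.63 ± 0.42 over 14 arrays and -1.03 without the 2 arrays.

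Markers of airway epithelium were on the lower side. Of 9 club cell markers, 7 were lower and 0 higher at an unadjusted p under 0.05, against 10.4% lower over all genes, and all 9 differences were below 0 with a median of -0.39. Leaving out the 2 arrays left 4 lower, against 4.67% of all genes, with a median of -0.28. After centring the tested genes 5 were lower, beside 483 of all 11360 genes, with a median of -0.30. Reg3g, an antibacterial lectin, was at 9.52, 9.27 and 9.53 in PBEF+/- against 9.89 to 11.19 in Control, and its difference was -0.96 ± 0.27. In ventilated lungs the Reg3g groups overlapped. Cyp2f2, the club cell cytochrome P450, differed by -0.29 ± 0.09, and Scgb1a1, the defining secretoglobin, by -0.06 ± 0.03, which did not pass. The summed level of the club cell markers was 17.29 to 17.51 in Control, 17.07 to 17.39 in PBEF+/-, 17.04 to 17.32 in VALI and 16.86 to 17.09 in VILI PBEF+/-. In whole lung, fewer cells of a type and less RNA per cell cannot be told apart.

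Of 11 ciliated cell markers, 5 were lower and 0 higher, against 10.4% lower over all genes, with a median of -0.37 against -0.089. The 5 include Dnah5, whose VALI arrays lay at 4.02 to 4.50, below every array median (4.60 to 4.75). With a filter of at least 6 arrays above the median Dnah5 dropped out and 4 markers were lower, beside 1169 of all genes in that setting. Its place among the 5 is therefore no support for a difference. Leaving out the 2 arrays left 2 of 11 lower, against 4.67% of all genes, with a median of -0.15 against -0.06. Among single arrays, the count was 2 without PBEF+/- replicate 3, VALI replicate 4, or VILI PBEF+/- replicate 1 or 2. In these settings 726 to 747 of all 11360 genes were lower. The count was 3 without Control replicate 1, 2 or 3, VALI replicate 3 or VILI PBEF+/- replicate 3, where 933 to 1406 of all genes were lower. It was 8 without PBEF+/- replicate 1, where 1818 of all genes were lower. Foxj1, the master regulator of motile cilia, was at 10.06, 8.09 and 8.32 in PBEF+/- against 9.18 to 10.34 in Control, so the groups overlapped. Its difference was -0.76 ± 0.32. Tppp3, a tubulin polymerisation protein, was at 12.46, 12.59 and 12.49 in VILI PBEF+/-, below the VALI range of 12.66 to 13.08, and its difference was -0.35 ± 0.10. In unventilated lungs the Tppp3 groups overlapped.

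In each other list of cell type markers, 0 to 2 members passed the unadjusted threshold. All 11 alveolar type II markers lay below 0, as did all 11 type I markers, but with medians of -0.08 and -0.13 beside -0.089 for all genes, and 1 and 2 of them were lower. Of 15 endothelial markers 2 were lower and 0 higher, which is near the 10.4% of all genes that were lower. Of 14 macrophage and monocyte markers 0 passed, and of 14 smooth muscle and fibroblast markers 1 was lower. Of 10 B cell and 13 T and NK cell markers 0 passed, with medians of -0.27 and -0.16. In ventilated lungs these medians were -0.66 and -0.41, and without the 2 arrays -0.09 and -0.14. Neutrophil markers had a median of 1.21, with 2 of 11 higher at an unadjusted p under 0.05, against 3.25% of all genes, and a median of 0.11 without the 2 arrays. S100a8, an abundant neutrophil protein, was at 14.48, 14.36 and 14.55 in VILI PBEF+/-, within the 14.32 to 14.84 of VALI replicates 1 to 3, and at 10.45 in VALI replicate 4. S100a8 was at 10.64 and 12.63 in PBEF+/- replicates 1 and 2, against 10.23 to 11.83 in Control, and at 14.66 in replicate 3. The neutrophil count was 7 without PBEF+/- replicate 1, and 1 without PBEF+/- replicate 3 or without VILI PBEF+/- replicate 3. Of all 11360 genes, 549, 239 and 420 were higher in these 3 settings. The summed neutrophil markers ran from 11.80 to 12.82 in Control, 12.03 to 15.50 in PBEF+/-, 11.98 to 15.75 in VALI and 15.35 to 15.47 in VILI PBEF+/-. The share of neutrophil RNA in the cytokine and NF-kB results was not tested. Skeletal muscle RNA was present in some lungs: Myh1 stood at 13.71 and 14.35 in VALI replicates 1 and 4 and 8.42 in VILI PBEF+/- replicate 2, and between 2.54 and 2.69 in the 11 others. The 7 tested skeletal muscle markers had a median of -1.69, or -3.31 in ventilated lungs, and 0 of them passed.

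**Figure D4:**
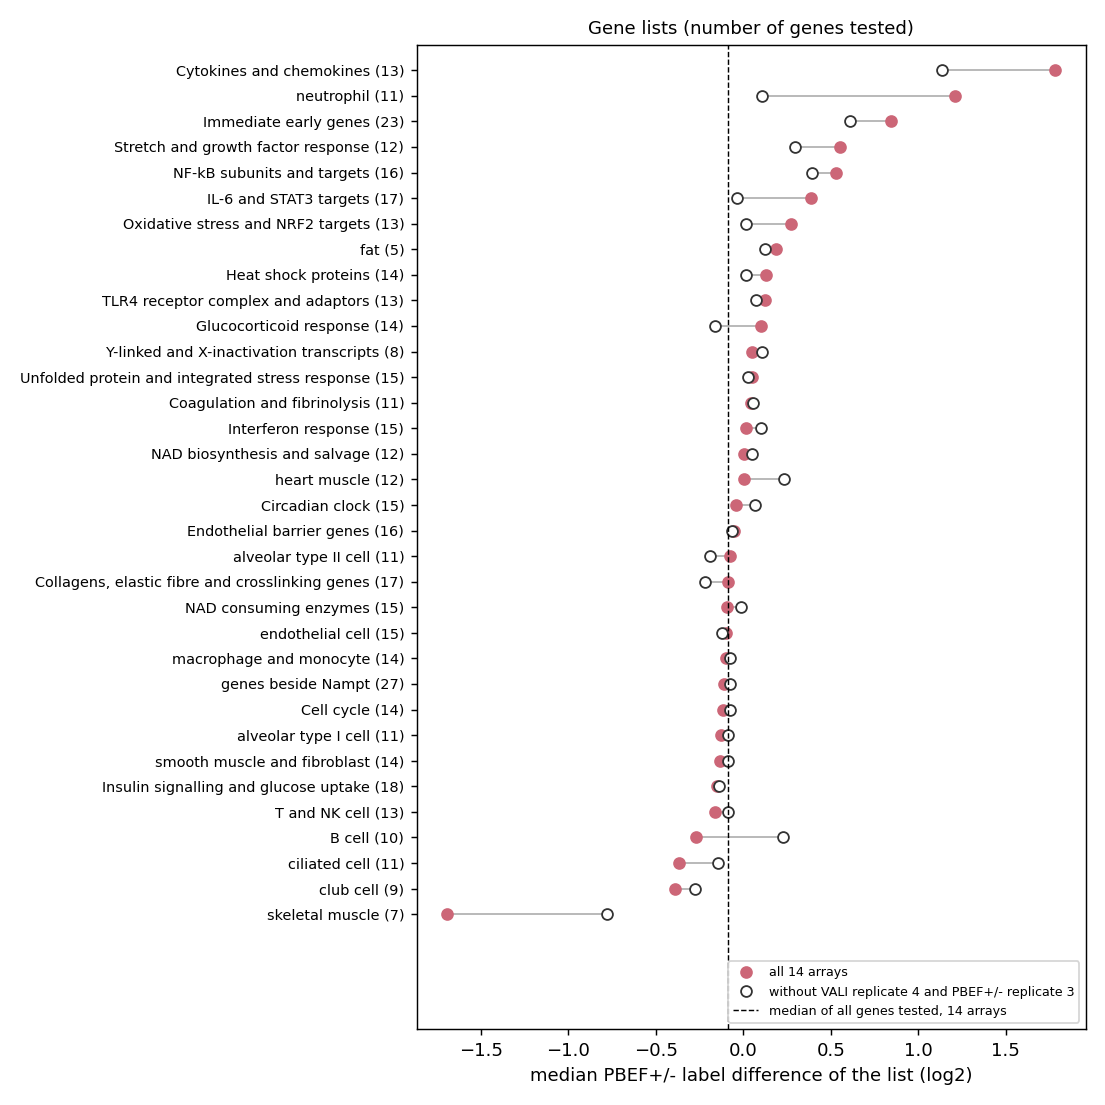
Median log2 difference by PBEF+/- label of each list with 5 or more tested genes, the number tested in brackets, for all 14 arrays (filled) and without VALI replicate 4 and PBEF+/- replicate 3 (open); the dashed line is the median of all tested genes at -0.089. Cytokines (1.78 to 1.14), immediate early genes (0.85 to 0.61) and NF-kB genes (0.53 to 0.39) stay right of the line, neutrophil markers go from 1.21 to 0.11, and the open points of most lists lie close to the line.

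Nampt, the gene of PBEF, did not separate by label. It was at 10.21, 10.36, 10.21 and 9.95 in Control and 9.34, 9.21 and 10.71 in PBEF+/-. It was at 10.05, 9.91, 10.54 and 9.25 in VALI and 10.79, 10.62 and 9.28 in VILI PBEF+/-. PBEF+/- had 1 array above and 2 below all Control arrays, while VILI PBEF+/- had 2 above all VALI arrays and 1 next to the lowest of them. The difference was -0.07 by a two-sided exact permutation test within ventilation states (p = 0.824 over 1225 assignments, the smallest possible being 0.00163). The other 2 probe sets gave -0.18 (exact permutation p = 0.634) and 0.01 (exact permutation p = 0.980). By limma the difference was -0.07 ± 0.30, with -0.43 in unventilated and 0.29 in ventilated lungs. Without the 2 arrays it was -0.39 ± 0.27, made up of -0.91 and 0.06. PBEF+/- replicates 1 and 2 were then the lowest of the unventilated arrays. Probe sets for mouse Nampt do not measure a protein given to the lung.

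The genes around NAD followed no common direction. Of 12 tested genes of NAD biosynthesis and salvage, 0 were higher and 2 lower at an unadjusted p under 0.05, which is near the 10.4% of all genes that were lower, with a median of 0.00 against -0.089 for all genes. The lower ones were Nadk2, the mitochondrial NAD kinase (-0.60 ± 0.21), and Naprt, which makes NAD from nicotinic acid (-0.43 ± 0.19). Nadk2 was at 9.02, 8.62 and 7.81 in PBEF+/- against 8.72 to 9.59 in Control, with overlap in both states. Its 3 other probe sets gave -0.43, 0.02 and 0.11. Neither passed without the 2 arrays, where 0 of the 12 were lower. Of 15 tested NAD-consuming enzymes, among them sirtuins and PARPs, 0 passed in either direction and the median was -0.09.

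The 20 protein-coding genes on each side of Nampt in gene order were set beside the rest because a carried allele would lie among them. Of these 40, 27 were tested, 0 were higher and 2 lower (Snx13, -0.20 ± 0.06, and Agr3, -0.71 ± 0.33), which is 2 of 27 beside 10.4% of all genes. Their median was -0.11 against -0.089 for all genes, and -0.07 against -0.06 without the 2 arrays. Of the remaining lists, 2 of 13 oxidative stress and NRF2 targets were higher, with Nfe2l2 itself at 0.27 ± 0.08, and 3 of 11 coagulation genes were higher, against 3.25% of all genes. In each list 1 gene was higher without the 2 arrays, and the median of the NRF2 targets went from 0.27 to 0.02. The tissue factor gene F3 was at 11.11 and 11.56 in PBEF+/- replicates 1 and 2 against 10.89 to 11.04 in Control. Neither F3 nor any other tested coagulation gene was apart without overlap in both states. The clock repressor Nr1d1 differed by -0.56 ± 0.20, while the clock list as a whole had 1 higher and 1 lower of 15. Of 15 interferon response genes and 17 genes of collagens and elastic fibre, 0 passed in either direction.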

How the data were processed

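Total lung RNA was hybridised as biotin-labelled cRNA (6 µg per array, per the labels' protocols) to 14 Affymetrix mouse arrays, whose number limits the precision. The deposited values are log2 expression per probe set. MAS5 and GCRMA appear in the submitters' processing notes with no stated role, and a low floor or background step there can change fold sizes of dim genes such as Il6. Of 45101 probe sets, 34958 had 1 gene symbol in the platform annotation, 932 several and 9211 none. For each gene the probe set with the highest mean was used. Genes above the array median in at least 3 arrays were tested (11360 of 18194).

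The additive model (label plus ventilation) and a model of the 4 groups were fitted in limma 3.58.1 (R 4.3.3) with a variance trend and Benjamini-Hochberg adjustment, called under 0.05. Every adjusted p printed is limma's. Group errors are standard deviations, and errors of differences are SE. Nampt was also tested by exact permutation. In data simulated for the label effect over 11360 genes, 200 of them changed, 85% of log2 changes of 1 and 96% of changes of 2 were recovered, and 8 unchanged genes were called. The simulated noise was normal and independent between arrays and genes, and no simulated array was made to stand apart from its group. These rates therefore do not say how many changes of that size the real arrays would show.

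Named genes are Nampt, the 10 smallest p in each direction, up to 4 genes in each direction with 6 arrays apart from 8, and up to 3 members per list under an unadjusted p of 0.05. Other genes were named after their values were seen. Members and lists were chosen with earlier results of these data known. The 2 arrays left out were picked from their own values. Figures used matplotlib 3.10.9.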

Additional observations from a re-analysis of the deposited data

Results flagged for a closer look

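Among the 62 named genes, 17 of 124 gene and group pairs in the groups of 4 arrays had 1 array set apart from the rest by more than Dixon's test allows, where chance gives about 1 in 20 groups. VALI replicate 4 was that array in 10 of the 17. It was low in that group for Atf4 (11.51, others 12.51 to 12.54), Clec4e (4.86, others 7.33 to 7.72), Ddx3x (14.17, others 14.70 to 14.80), F3 (10.90, others 13.11 to 13.56), Irs2 (5.46, others 6.41 to 6.58), Plaur (8.98, others 10.85 to 10.995) and Socs3 (11.16, others 13.35 to 13.62). It was high for Alkbh4 (7.91, others 7.52 to 7.58), Kctd14 (8.78, others 7.88 to 7.96) and Mcm2 (8.27, others 7.32 to 7.39). The PBEF+/- groups, with 3 arrays each, are too small for this check.

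The other 7 were spread over 5 arrays. Control replicate 1 was low for Irs1 (10.48, others 10.85 to 10.91), and Control replicate 3 was high for Cxcr2 (6.17, others 5.69 to 5.77). Control replicate 4 was high for Kctd14 (8.68, others 8.37 to 8.40) and Pon1 (12.37, others 11.71 to 11.81). VALI replicate 1 was low for Dnah5 (4.02, others 4.42 to 4.50), and VALI replicate 3 was high for Ccl7 (3.99, others 2.85 to 2.96) and Itgb8 (7.67, others 6.81 to 6.91).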

How the results depend on the processing

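Of 62 named genes, 59 kept their direction in every alternative that tested them, 29 for most and 28 for Ccl7, Dnah5 and Tnfaip3, which missed the filter on low values in 1 each. The exceptions were Nampt, and Tmem106b (0.044) and Ncaph2 (0.101) with the probe set of highest variance. All named genes but Nampt were picked from their values in these same arrays, so a kept direction follows largely from that choice. Genes called for the label numbered 0 as deposited and 1 (1 higher) with quantile normalization, with Xist as a covariate, or with tested genes centred on their median, an alternative chosen after seeing the data. Array weights called 842 (362 higher, 480 lower), with weights from 0.166 (PBEF+/- replicate 2) to 5.85 (VILI PBEF+/- replicate 1). Leaving out single arrays gave 0 to 7 called genes (0 to 5 higher, 0 to 2 lower), 7 without PBEF+/- replicate 1 and 2 without PBEF+/- replicate 3. In ventilated lungs 0 genes were called with all arrays, 2 with the probe set of highest variance, 1711 with array weights, 13 without VALI replicate 4 and PBEF+/- replicate 3, and 0 to 9 without single arrays (9 without PBEF+/- replicate 3 or VILI PBEF+/- replicate 3, 1 without VALI replicate 3). Array weights called 20 genes for the difference between states, and no other alternative called any. The Nampt difference turned to 0.011 with the probe set of highest variance and to 0.015 with tested genes centred. Without single arrays the Nampt permutation value ran from -0.308 to 0.168, it was -0.42 (limma -0.39) without VALI replicate 4 and PBEF+/- replicate 3, and by limma Nampt was 0.38 with array weights and 0.00038, 0.067, 0.095 and 0.093 without VALI replicate 3, PBEF+/- replicate 1, PBEF+/- replicate 2 and VILI PBEF+/- replicate 3. The cause of these changes was not tested.

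Replicate numbers carried no stated pairing. Over 19 same-numbered pairs the correlation of deviations ran from -0.352 to 0.316, with 7 over 0.1. Pairs with different numbers are not given beside them, so these values do not decide whether arrays were paired. With the replicate block 0 genes were called. At an unadjusted p under 0.05, 13 of 23 immediate early, 9 of 13 cytokine, 8 of 16 NF-kB and 4 of 12 stretch genes were higher. Of 9 club cell genes, 6 were lower. Over all 11360 genes, 222 were higher and 433 lower in that setting. With age as a covariate only the unventilated arrays bear on the label, and these counts were 7, 1, 1, 3 and 3. Over all genes, 1.93% were then higher and 6.33% lower.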
